A study of Bos taurus with 92 samples.

Results

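Transcripts of 10 antioxidant and redox genes were followed in single bovine blastocysts and in somatic donor cells. The genes were taken by symbol from the probe annotation: HMOX1, TXNRD1, TXN2, TXNIP, PRDX2, PRDX3, SOD1, SOD2, GPX4 and SELENOP. They are 10 of the 4452 named genes of the cDNA array and lie on 13 of its 8208 probes. All 10 passed the filter on missing values, as did 4398 named genes in all.

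Of the 44 embryos 14 had been conceived by artificial insemination (AI) and 15 by fertilisation in vitro (IVF), and 15 had been made by nuclear transfer (NT), in which a somatic nucleus replaces that of the oocyte. A further 2 samples were donor cells, the source of such nuclei. All RNA had been amplified linearly, with 3 rounds for embryos and donor cells and 2 for the common reference, and each sample met that reference on 2 arrays with the dyes Cy5 and Cy3 exchanged. The labels give no breed, sex, age, culture medium or hybridisation batch, so that a batch and the kinds of embryo cannot be told apart. The names of 3 AI embryos begin with H, those of 8 NT embryos with 2_ and those of 7 with 3_, and the labels do not explain these marks. No label says whether embryos of a kind shared parents, a donor line or a culture drop, so that p-values measure the spread between these embryos.

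Cells remove superoxide and peroxide in relays. Superoxide dismutases turn superoxide into hydrogen peroxide, peroxiredoxins and glutathione peroxidases reduce peroxides, and thioredoxin, recharged by thioredoxin reductase at the cost of NADPH, restores the peroxiredoxins. Mitochondria and cytosol each hold a set of these enzymes, and other genes, such as HMOX1, are switched on by oxidants through the transcription factor NRF2. Early embryos are known to be sensitive to the oxygen tension and the medium in which they are cultured.

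Values are log2 ratios of sample to reference, set to 0 at the median spot of each array. That the deposited ratio is Cy5 over Cy3 is inferred and likely rather than certain. The inference used the exchange of dyes and the fibroblast and trophectoderm markers. A level compares samples for 1 gene and does not compare genes, since probes differ. Of the fibroblast markers fixed for the check of cell types 8 of 11 were measured. They averaged -2.85 to -1.98 in the embryos and 1.06 to 1.18 in the donor cells. The trophectoderm markers, 13 of 17 measured, averaged 0.69 to 2.03 in the embryos and -0.17 to -0.13 in the donor cells. Both sets separated embryos from donor cells. Since they also served to infer the direction of the ratio, the signs of these levels are no separate check of the labels. Of the cumulus cell markers only CYP19A1 was measured, and of the inner cell mass markers KLF4 and SALL4. The mean of KLF4 and SALL4 was higher in donor cells, at 1.43, than in AI, IVF and NT embryos, at 0.62, 0.67 and 0.72. Of the 13 trophectoderm markers 7 were higher in AI and in NT embryos than in donor cells, and 9 in IVF embryos. In each kind 1 was lower (limma, adjusted p below 0.05). Between the 2 arrays of a sample r was 0.55 to 0.76 in embryos and 0.25 to 0.33 in donor cells, whose values are therefore the less precise. Cross-hybridisation between genes of a family was not tested.

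**Figure D1:**
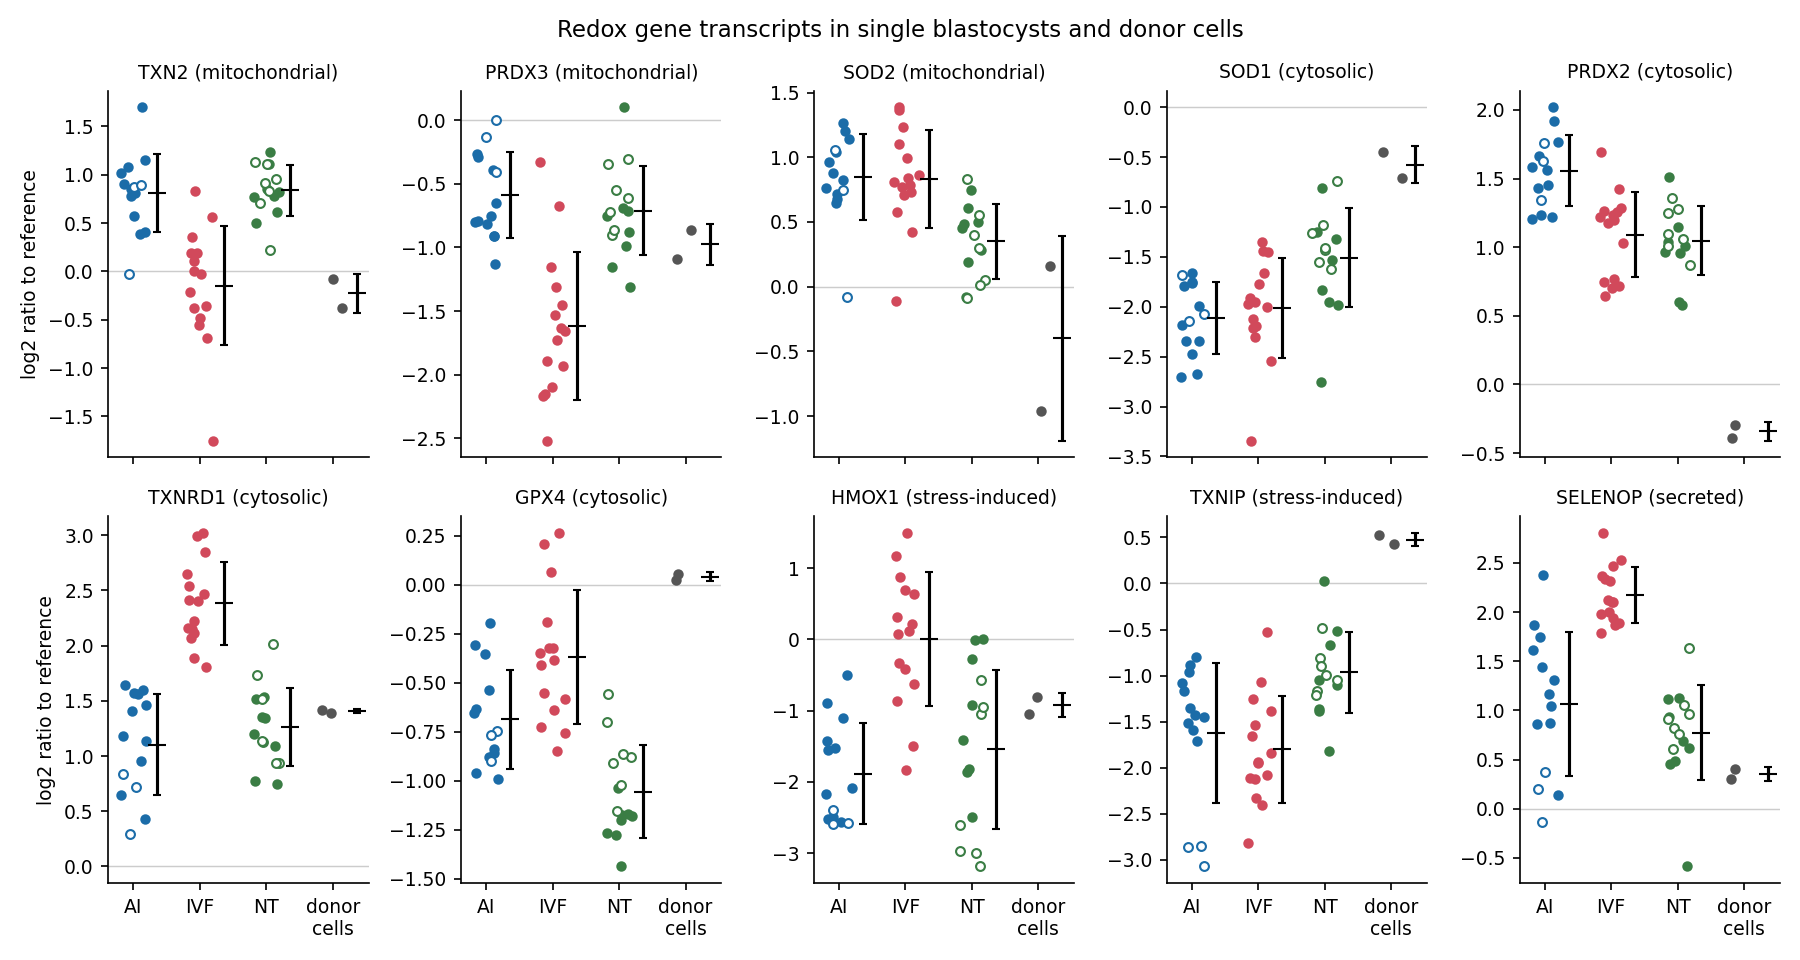
Log2 ratio to the reference (vertical axes, 1 scale per gene) of 10 redox genes in 14 AI, 15 IVF and 15 NT blastocysts and 2 donor cell samples. Points are samples, open points are AI embryos labelled H and NT embryos labelled 3_, and black bars are the mean with SD. TXNRD1 was at least 1.81 in the IVF embryos and at most 1.64 in the AI embryos, and SELENOP was at least 1.79 in the IVF embryos and at most 1.63 in the NT embryos.

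IVF embryos differed from AI embryos in most of the 10 transcripts. TXN2 and PRDX3, of the mitochondrial thioredoxin relay, moved opposite to TXNRD1 and HMOX1. TXN2 and PRDX3 were lower after IVF, by 1.95-fold and 2.04-fold. TXNRD1, HMOX1 and SELENOP were higher, by 2.43-fold, 3.71-fold and 2.16-fold. The directions did not follow the compartments throughout. SOD2, the other mitochondrial gene of the 10, was not shown to differ (-0.01), and the cytosolic PRDX2 was lower (-0.47). Of the listed peroxiredoxins outside the 10, PRDX1, PRDX4 and PRDX6 were lower (-0.46, -0.61 and -0.41). PRDX5 was not shown to differ (-0.07), and with arrays as deposited none of these 4 passed. In all, 7 of the 10 genes passed the test (limma, adjusted p below 0.05), 4 higher and 3 lower, against 29.5% of all genes tested (13.9% higher and 15.6% lower). Their median absolute difference was 0.71, beside 0.26 over all genes. NT embryos differed from IVF embryos in 9 of the 10, 4 higher and 5 lower, against 24.2% of all genes (13.9% higher and 10.3% lower), with a median absolute difference of 0.87 beside 0.24. Between NT and AI embryos 5 of the 10 passed, 2 higher and 3 lower, against 8.07% of all genes (3.8% higher and 4.27% lower), with a median absolute difference of 0.36 beside 0.19. The signed medians, 0.04 in IVF against AI, -0.26 in NT against IVF and -0.05 in NT against AI, lay beside 0.03, 0.00 and 0.03 over all genes. These comparisons share embryos, so that the high level of a gene in IVF embryos enters both of the first 2. The 10 genes were chosen with earlier results of these data known. Their shares beside those of all genes are therefore a description and no test of redox genes as a class. Of the 39 other measured redox genes listed below, 35.9% passed in IVF against AI, 28.2% in NT against IVF and 17.9% in NT against AI embryos.

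**Figure D2:**
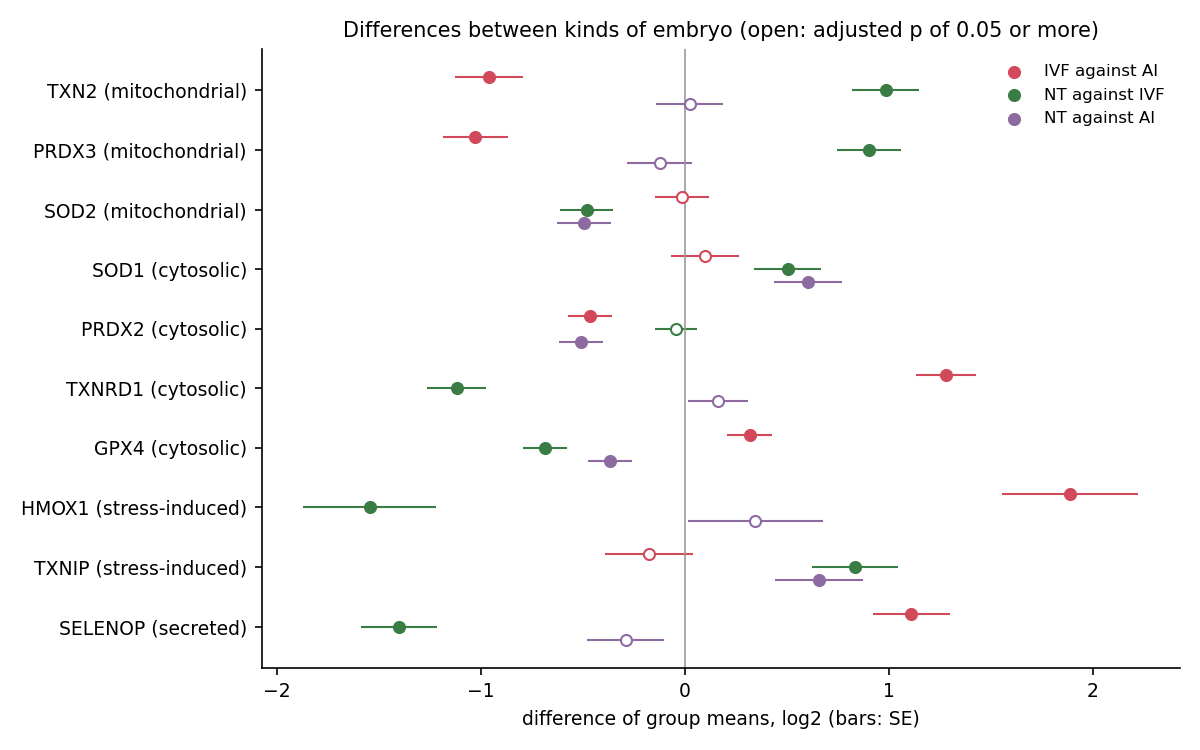
Difference of group means on the log2 scale (horizontal axis) of each gene in IVF against AI, NT against IVF and NT against AI embryos, with the standard error as a bar. Filled points have an adjusted p below 0.05 and open points do not. TXN2 and PRDX3 lie left of 0 in IVF against AI, at -0.96 and -1.03, and TXNRD1, HMOX1 and SELENOP lie right of it, at 1.28, 1.89 and 1.11.

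TXN2 (Entrez gene 281557), the thioredoxin of the mitochondrial matrix, ran from -0.03 to 1.70 in AI embryos with a median of 0.86, and from -1.75 to 0.83 in IVF embryos with a median of -0.03. In NT embryos it ran from 0.23 to 1.23 with a median of 0.83, and the donor cells read -0.37 and -0.08. The IVF embryos were low, with 7 of 15 below every AI embryo, though the ranges overlapped, and AI and NT embryos shared a range. TXN2 was lower in IVF than in AI embryos by 0.96 ± 0.17 (SE; difference -0.96, adjusted p = 1.53e-05) and higher in NT than in IVF embryos by 0.98 ± 0.16 (adjusted p = 1.13e-05). Between NT and AI embryos the difference was 0.02 (95% interval -0.31 to 0.36), and -0.01 with the Cy3 arrays alone.

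PRDX3 (Entrez gene 281998) is the mitochondrial peroxiredoxin that TXN2 recharges. It ran from -1.13 to 0.00 in AI embryos with a median of -0.70, from -2.52 to -0.33 in IVF embryos with a median of -1.66, and from -1.31 to 0.10 in NT embryos with a median of -0.72. The donor cells read -1.09 and -0.86. IVF embryos were again the low group: 13 of 15 lay below every AI embryo. PRDX3 fell by 1.03 ± 0.16 in IVF against AI (adjusted p = 3.31e-06) and was higher by 0.90 ± 0.16 in NT against IVF (adjusted p = 2.66e-05). NT and AI embryos differed by -0.12 (95% interval -0.45 to 0.20), which turned to 0.29 with arrays as deposited.

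SOD2 (Entrez gene 281496), the manganese superoxide dismutase of mitochondria, did not follow TXN2 and PRDX3. It ran from -0.08 to 1.26 in AI embryos with a median of 0.85, from -0.11 to 1.39 in IVF embryos with a median of 0.81, and from -0.09 to 0.83 in NT embryos with a median of 0.40. All 3 ranges overlapped, and the NT embryos sat low, with each of the 15 below the AI mean. In NT embryos SOD2 was lower than in AI by 0.50 ± 0.13 (difference -0.50, adjusted p = 0.0139) and than in IVF by 0.48 ± 0.13 (difference -0.48, adjusted p = 0.00494). Both calls were lost with arrays as deposited, at -0.08 and -0.10, and with the NT embryos labelled 2_ alone, at -0.45 and -0.43. The first was also lost with the Cy3 arrays alone, at -0.31, and with the NT embryos labelled 3_ alone, at -0.55. IVF and AI embryos differed by -0.01 (95% interval -0.28 to 0.26).

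SOD1 (Entrez gene 281495) encodes the copper and zinc superoxide dismutase of the cytosol, the counterpart of SOD2. It ran from -2.70 to -1.66 in AI embryos with a median of -2.11, from -3.34 to -1.35 in IVF embryos with a median of -1.97, and from -2.76 to -0.74 in NT embryos with a median of -1.43. NT embryos were the high group, 11 of 15 above every AI embryo, with 1 embryo below them all. SOD1 was higher in NT than in AI embryos by 0.60 ± 0.17 (adjusted p = 0.0173) and than in IVF embryos by 0.51 ± 0.16 (adjusted p = 0.0193). With the 8 NT embryos labelled 2_ alone neither passed, at 0.43 and 0.34 (adjusted p = 0.24 and 0.273, the highest of the alternatives run, of which the lowest gave 0.000496 and 0.000686), and the second was also lost with the Cy5 arrays alone, at 0.52. Within an embryo SOD2 minus SOD1 had a mean of 1.86 ± 0.63 (SD) in NT, 2.96 ± 0.45 in AI and 2.85 ± 0.63 in IVF embryos.

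PRDX2 (Entrez gene 286793), the abundant cytosolic peroxiredoxin, was highest in AI embryos. It ran from 1.21 to 2.02 there with a median of 1.58, from 0.65 to 1.69 in IVF embryos with a median of 1.20, and from 0.58 to 1.51 in NT embryos with a median of 1.04. The AI embryos were the high group, with 8 of 15 IVF and 11 of 15 NT embryos below every one of them and the rest overlapping. Against AI embryos PRDX2 was lower in IVF (difference -0.47 ± 0.11, adjusted p = 0.000766) and in NT embryos (difference -0.51 ± 0.11, adjusted p = 0.00125). Both calls were lost with arrays as deposited, at -0.43 and -0.10, and with the Cy3 arrays alone, at -0.15 and -0.27. The second was also lost with the NT embryos labelled 3_ alone, at -0.43. NT and IVF embryos differed by -0.04 (95% interval -0.25 to 0.17), which turned to 0.34 as deposited.

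TXNRD1 (Entrez gene 282388), the cytosolic thioredoxin reductase and a selenoprotein under NRF2 control, separated the IVF embryos from AI embryos. It ran from 1.81 to 3.02 in IVF embryos with a median of 2.40, from 0.30 to 1.64 in AI embryos with a median of 1.16, and from 0.75 to 2.01 in NT embryos with a median of 1.20. The lowest IVF embryo exceeded the highest AI embryo, and 14 of 15 NT embryos lay below every IVF embryo. TXNRD1 was higher in IVF than in AI embryos by 1.28 ± 0.15 (adjusted p = 5.89e-09) and lower in NT than in IVF embryos (difference -1.12 ± 0.14, adjusted p = 1.40e-07). NT and AI embryos differed by 0.16 (95% interval -0.13 to 0.46). That value was 0.58 with arrays as deposited, where it passed the test, and -0.12 with the Cy5 arrays alone.

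GPX4 (Entrez gene 286809) is the glutathione peroxidase that reduces lipid peroxides in membranes. It is grouped here with the cytosolic genes, although forms of it are also known in mitochondria and the nucleus. It ran from -0.85 to 0.27 in IVF embryos with a median of -0.38, from -0.99 to -0.19 in AI embryos with a median of -0.76, and from -1.44 to -0.55 in NT embryos with a median of -1.15. The order was IVF, AI, NT with overlap at each step, and 13 of 15 NT embryos lay below every IVF embryo. GPX4 was lower in NT than in IVF embryos (difference -0.69 ± 0.11, adjusted p = 4.15e-06) and lower than in AI embryos (difference -0.37 ± 0.11, adjusted p = 0.0274), a direction that flipped to 0.05 with arrays as deposited. The first call was lost as deposited too, at -0.30 (adjusted p = 0.187, the highest of the alternatives run, of which the lowest gave 2.91e-06), and the second also with the Cy3 arrays alone, at -0.09, and with the NT embryos labelled 3_ alone, at -0.18. GPX4 was higher in IVF than in AI embryos by 0.32 ± 0.11 (adjusted p = 0.0232), but by 0.01 with the Cy5 arrays alone. This call was also lost as deposited, at 0.35, and without the AI embryos labelled H, at 0.29.

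HMOX1 (Entrez gene 513221), haem oxygenase and a classical gene of the oxidative stress response, varied most between embryos of the 10. It ran from -1.84 to 1.49 in IVF embryos with a median of 0.12, from -2.59 to -0.51 in AI embryos with a median of -2.13, and from -3.19 to 0.01 in NT embryos with a median of -1.41. Of 15 IVF embryos 11 lay above every AI embryo, and the NT embryos spread over both ranges, 5 below -2 and 6 above -1. HMOX1 was higher in IVF than in AI embryos by 1.89 ± 0.33 (adjusted p = 2.04e-05) and lower in NT than in IVF embryos (difference -1.54 ± 0.33, adjusted p = 0.00037). NT and AI embryos differed by 0.35 (95% interval -0.32 to 1.01), and by -0.16 with the NT embryos labelled 3_ alone. Its SD within a kind of embryo was 0.94, larger than in 96.8% of genes tested, and its error from the 2 arrays was 0.31, so that most of the spread exceeded the disagreement of the arrays. Any error that both arrays of an embryo share, as from amplification, would not show in that value.

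TXNIP (Entrez gene 506790) encodes a protein that binds and restrains thioredoxin and whose transcript follows glucose. It ran from -3.07 to -0.80 in AI embryos with a median of -1.44, from -2.81 to -0.52 in IVF embryos with a median of -1.94, and from -1.82 to 0.02 in NT embryos with a median of -1.05. NT embryos were high, 14 of 15 above the mean of either other kind, with overlap. TXNIP was higher in NT than in IVF embryos by 0.84 ± 0.21 (adjusted p = 0.00266) and than in AI embryos by 0.66 ± 0.22 (adjusted p = 0.0472). Without the 3 AI embryos labelled H the latter was 0.30 (adjusted p = 0.324, the highest of a range from 0.00129 over the alternatives), and it was also lost under quantile normalisation, a common scale, the Cy5 arrays alone, either set of NT embryos alone, a fit of the 2 groups alone and without the probe whose duplicate spots correlated least. The call against IVF embryos was kept under every alternative run. IVF and AI embryos differed by -0.18 (95% interval -0.61 to 0.26), and without the H embryos by -0.53 (adjusted p = 0.0245, the lowest of a range up to 0.833).

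TXNIP had 3 probes, which did not read alike. In NT against IVF embryos they gave 1.32, 0.95 and 0.23, with adjusted p over probes of 0.00028, 0.0326 and 0.495. The third had 10.9% of its values at ratios of whole numbers from 1 to 4, against 3.11% over all spots, and its duplicate spots correlated with r of 0.56, against 1.00 in each of the others. SOD2 had 2 probes, which fell alike in NT against IVF embryos (-0.36 and -0.60) and differed against donor cells, as given below. Each other gene had 1 probe, with duplicate spots at r of 0.93 or more.

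SELENOP (Entrez gene 282066), the secreted selenoprotein that carries selenium between cells, was highest in IVF embryos. It ran from 1.79 to 2.81 there with a median of 2.11, from -0.14 to 2.38 in AI embryos with a median of 1.11, and from -0.59 to 1.63 in NT embryos with a median of 0.82. No NT embryo reached the lowest IVF embryo, and AI embryos spanned both ranges. SELENOP was higher in IVF than in AI embryos by 1.11 ± 0.19 (adjusted p = 1.36e-05) and lower in NT than in IVF embryos (difference -1.40 ± 0.19, adjusted p = 2.39e-07). NT and AI embryos differed by -0.29 (95% interval -0.67 to 0.09), which turned to 0.12 with arrays as deposited. Without the AI embryos labelled H it was -0.54 and passed (adjusted p = 0.0487, the lowest of a range up to 0.849).

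Markers of cell types moved with the kind of embryo as well. The mean level of the trophectoderm markers was 1.16 in NT, 1.60 in AI and 1.61 in IVF embryos, with 4 of 13 lower in NT embryos against AI, 6 of 13 lower against IVF, and none higher in NT embryos. Between IVF and AI embryos 3 were higher and 1 lower. Of the 8 fibroblast markers 1 was higher in NT against AI embryos, 3 were higher and 1 lower in NT against IVF embryos, and 2 were lower in IVF against AI embryos, with mean levels of -2.25 in NT, -2.34 in AI and -2.38 in IVF embryos. Of the 2 inner cell mass markers 1 was higher and 1 lower in NT against IVF embryos and 1 higher in IVF against AI embryos. The single cumulus cell and primitive endoderm markers passed in none of these comparisons. The part of these markers in the redox differences was not tested. In a blastocyst fewer cells of a type and less transcript per cell cannot be told apart.

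**Figure D3:**
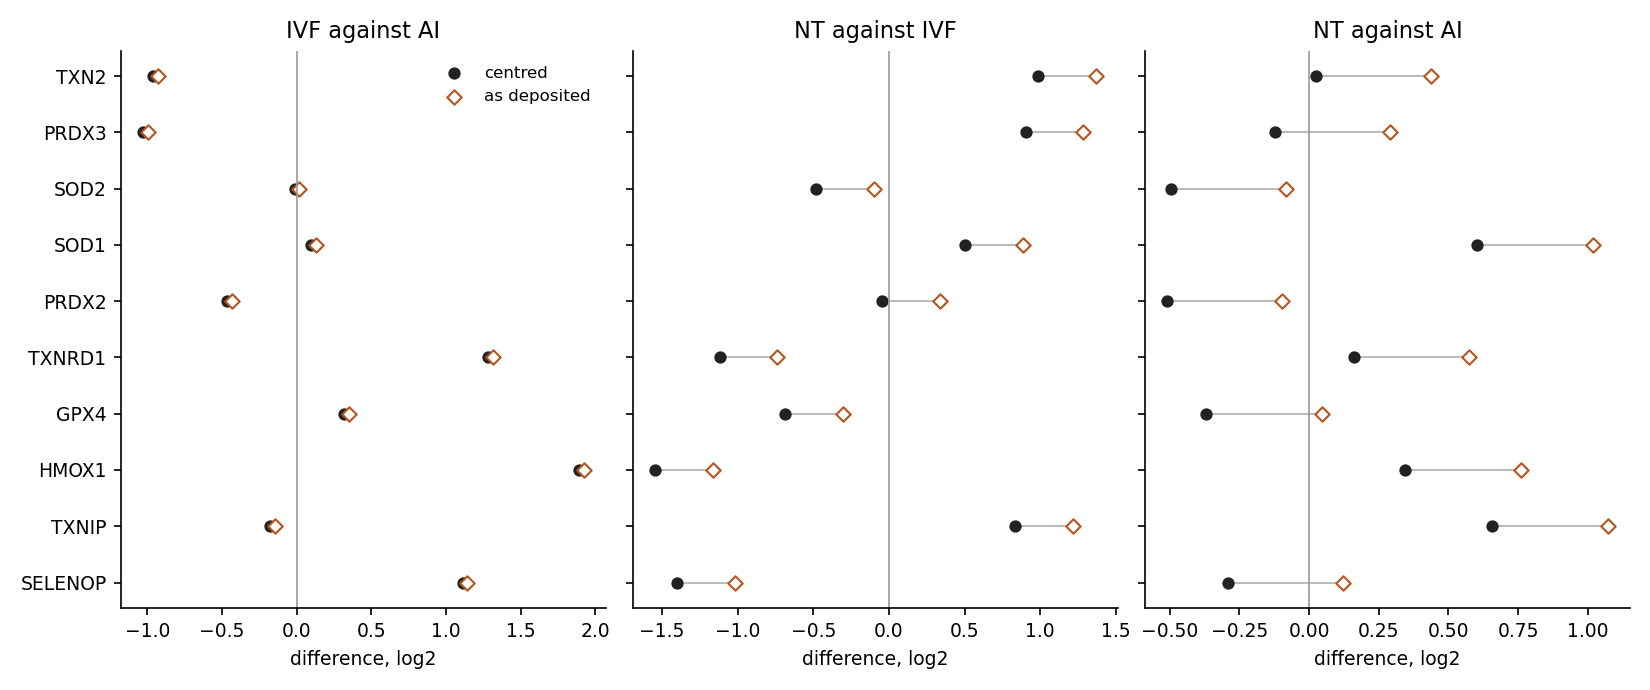
Differences between kinds of embryo on the log2 scale, with each array centred on its median (filled circles) and as deposited (open diamonds). In NT against AI embryos PRDX3, GPX4 and SELENOP cross 0, as does PRDX2 in NT against IVF embryos and SOD2 in IVF against AI embryos, while TXN2, PRDX3, TXNRD1, HMOX1 and SELENOP keep their side of 0 in the first 2 panels.

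Centring mattered for each comparison between embryos. As deposited, the median difference of all genes was 0.44 in NT against AI, 0.38 in NT against IVF and 0.06 in IVF against AI embryos. Each difference above is thus relative to the median gene. In IVF against AI embryos 698 genes passed as deposited in place of 1299, and the calls of PRDX2 and GPX4 were lost. Calls of TXN2, PRDX3, TXNRD1, HMOX1 and SELENOP in IVF against AI embryos held under every alternative run, as did those of the same 5 genes and TXNIP in NT against IVF embryos. None of the 5 calls in NT against AI embryos did. In IVF against AI embryos the highest adjusted p (limma) over the alternatives was 0.048 for TXN2, close to the threshold. It was 0.024 for TXNRD1, 0.0214 for SELENOP, 0.00577 for HMOX1 and 0.00437 for PRDX3.

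A difference of 2 genes within a sample does not depend on centring, since both lie on the same arrays. The mean of TXN2, PRDX3 and SOD2 minus that of SOD1, PRDX2, TXNRD1 and GPX4 had a mean of 0.39 ± 0.23 (SD, n = 14) in AI, -0.58 ± 0.33 (SD, n = 15) in IVF and 0.22 ± 0.30 (SD, n = 15) in NT embryos, and the donor cells read -0.89 and -0.45. Of 15 IVF embryos 13 lay below the lowest AI embryo, and 10 of 15 NT embryos lay above the highest IVF embryo. Only these contrasts between groups carry meaning, as the 0 of the score depends on the reference.

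The class difference rested in part on TXNRD1. With TXNRD1 moved from the cytosolic to the stress-induced genes, the group difference shrank from -0.97 to -0.65 in IVF against AI embryos and from 0.80 to 0.54 in NT against IVF embryos. TXN2 minus TXNRD1, a pair chosen after the values were seen, ran from -4.60 to -1.28 in IVF embryos and from -1.06 to 0.58 in AI embryos, with no overlap. In NT embryos it ran from -1.50 to 0.18, and 14 of 15 lay above every IVF embryo. PRDX3 minus PRDX2, the peroxiredoxins of the 2 compartments, had means of -2.71 ± 0.71 (SD) in IVF, -2.15 ± 0.35 in AI and -1.76 ± 0.35 in NT embryos, with overlap throughout.

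**Figure D4:**
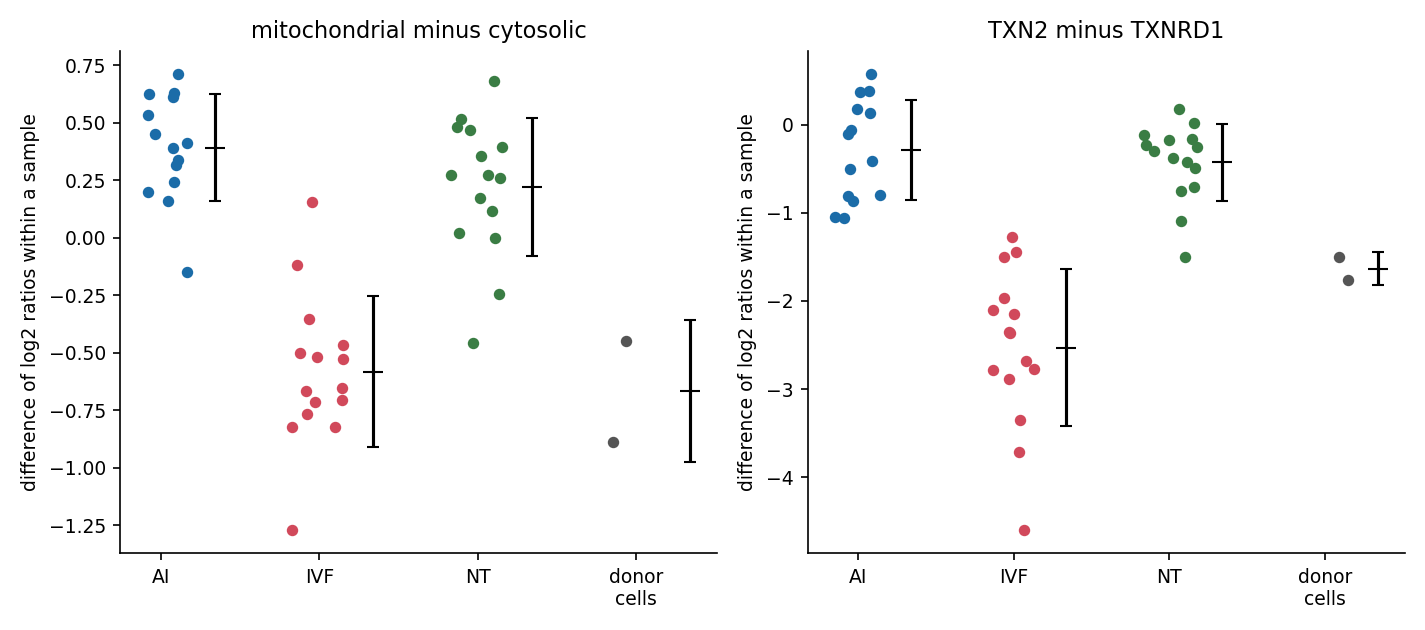
Difference of log2 ratios within each sample (vertical axes) for the mean of 3 mitochondrial minus the mean of 4 cytosolic genes (left) and for TXN2 minus TXNRD1 (right), by kind of sample, with mean and SD as black bars. On the right every IVF embryo, at -1.28 or lower, lies below every AI embryo, at -1.06 or higher.

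The stress-induced pair did not move together. HMOX1 was higher in IVF than in AI embryos while TXNIP did not pass the test, and in NT against IVF embryos HMOX1 was lower and TXNIP higher. Their mean had a range of -2.83 to -1.11 in AI, -2.12 to 0.06 in IVF and -2.11 to 0.02 in NT embryos, which overlapped.

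**Figure D5:**
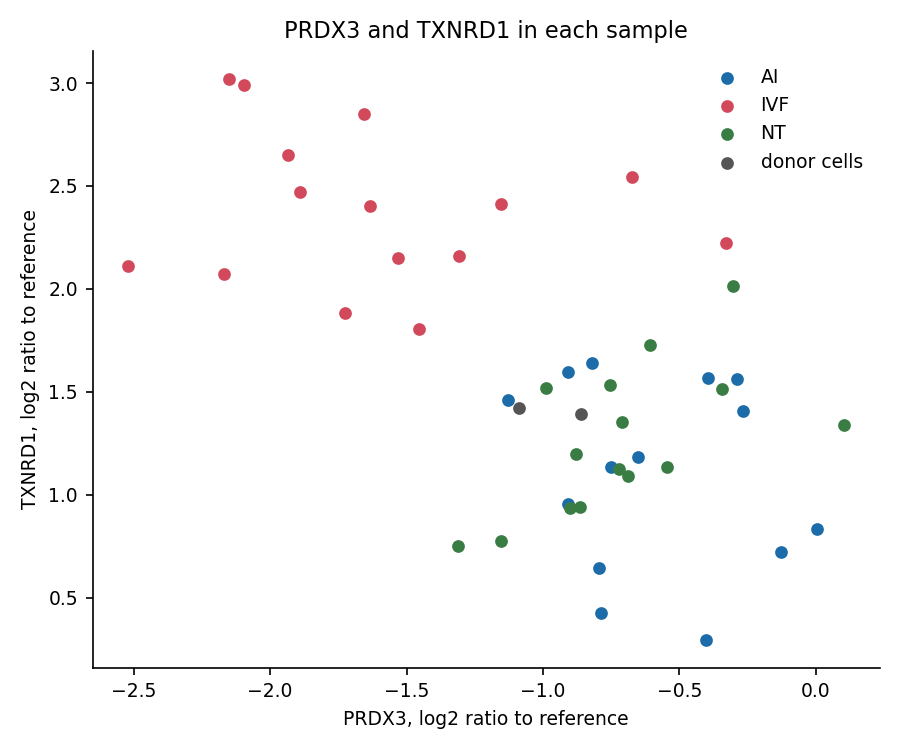
PRDX3 (horizontal axis) against TXNRD1 (vertical axis), both as log2 ratios to the reference, with 1 point per sample. IVF embryos fill the upper left, all at 1.81 or above in TXNRD1 and 13 of 15 below the lowest AI embryo, at -1.13, in PRDX3, while AI and NT embryos share 1 region.

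Within a kind of embryo the genes were not shown to vary together. For the pairs TXN2 and PRDX3, PRDX2 and PRDX3, SOD1 and SOD2, HMOX1 and TXNRD1, and GPX4 and SELENOP, r lay between -0.24 and 0.38 over the 14 AI, 15 IVF and 15 NT embryos. The smallest adjusted p of the 15 relations was 0.701 for Pearson's r and 0.486 for Spearman's rho (100000-resample permutation tests, 2-sided). The highest r was that of GPX4 and SELENOP in NT embryos (r = 0.38, rho = 0.35, n = 15, permutation p = 0.156 and 0.194), at 0.28 without the 2 embryos farthest from the median of GPX4. PRDX2 and PRDX3 in NT embryos had r = 0.37 and rho = 0.52 (n = 15, permutation p = 0.167 and 0.0498), and r was 0.63 without the 2 farthest embryos.

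The size of the spread differed between genes. PRDX2 and GPX4 had an SD within kinds of embryo of 0.27 and 0.28, and 10.3% and 11.7% of genes varied as little or less. The error of a sample's mean from its 2 arrays was 0.12 to 0.33 over the 10 genes, and in PRDX3 it was 0.33 beside an SD of 0.44. The median gene had 0.25 and 0.45.

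Other genes that varied most like each member, over the 44 embryos after the group mean was taken off, are given as a description. They share arrays and centring with it, and 3808 other genes were compared. SELENOP varied most like GADD45A (r = 0.86), SERPING1 (0.75) and PLS1 (0.74). SOD2 varied most like ACAP2 (0.88), OSTN (0.87) and SCAND1 (0.59), and PRDX2 like RPLP1 (0.71), RPL8 (0.68) and RACK1 (0.67), of which RPLP1 and RPL8 encode ribosomal proteins. TXN2 was nearest to TRAPPC4 (0.67), PRDX3 to TRAPPC6A (0.62) and SOD1 to VDAC3 (0.61), a channel of the outer mitochondrial membrane. TXNIP was nearest to GALM (0.59), TXNRD1 to PNP (0.57), GPX4 to PPP1R14B (0.57) and HMOX1 to PLEKHO2 (0.53).

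The AI embryos labelled H were set apart by TXNIP and SELENOP. Their TXNIP values were -2.85, -2.86 and -3.07, and the 11 other AI embryos ran from -1.71 to -0.80 with a median of -1.35, so that the sets did not overlap. Their SELENOP values were 0.37, 0.20 and -0.14, against 0.14 to 2.38 with a median of 1.31. In a fit with these embryos as a group of their own, added after the values were seen, TXNIP was lower by 1.66 ± 0.29 (difference -1.66, adjusted p = 0.00169) and SELENOP by 1.17 ± 0.28 (difference -1.17, adjusted p = 0.0328), 2 of the 10 genes against 0.933% of all genes. Since the fit followed the sight of these values, that share is a description and no test. TXNRD1 and PRDX3 differed by -0.62 ± 0.24 and 0.52 ± 0.27 without passing (adjusted p = 0.288 and 0.495). The trophectoderm markers of these embryos averaged 1.44 to 1.46, within the 1.27 to 2.03 of the others, and their 2 arrays correlated at 0.66 to 0.70, within 0.55 to 0.73.

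The 2 label sets of NT embryos were not shown to differ. In the same fit no gene of 4398 passed (limma, 0 called, 351 at an unadjusted p below 0.05). HMOX1 ran from -2.50 to 0.01 in the embryos labelled 2_ and from -3.19 to -0.57 in those labelled 3_, a difference of -0.95 ± 0.44 (adjusted p = 0.611). The lowest 4 of the 15 NT embryos in HMOX1 were all labelled 3_.

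Against the donor cells 6 of the 10 genes passed in each kind of embryo, beside 35.4% of all genes for NT, 37% for AI and 34.3% for IVF embryos. In NT and AI embryos 3 were higher and 3 lower, beside 20.1% and 15.4% of all genes for NT and 20.4% and 16.6% for AI embryos. In IVF embryos 4 were higher and 2 lower, beside 18.5% and 15.8% of all genes. PRDX2 was higher in every embryo than in either donor sample, which read -0.39 and -0.29, by 1.90 ± 0.22 in AI (adjusted p = 6.42e-10), 1.43 ± 0.22 in IVF (5.42e-07) and 1.39 ± 0.22 in NT embryos (9.11e-07). TXNIP was lower in every embryo than in either donor sample, at 0.43 and 0.53, with differences of -2.10 ± 0.44 in AI (adjusted p = 0.000124), -2.28 ± 0.44 in IVF (3.93e-05) and -1.44 ± 0.44 in NT embryos (0.00739). The TXNIP probe with duplicate spots at r of 0.56 gave -0.34 in AI, -0.33 in IVF and -0.10 in NT embryos. None of these passed the test over probes, while the other TXNIP probes passed in each kind. SOD1 was likewise lower in every embryo than in the donor cells, at -0.71 and -0.44, with differences of -1.54, -1.44 and -0.93 in AI, IVF and NT embryos (adjusted p = 0.000271, 0.000664 and 0.0268). The NT calls of TXNIP and SOD1 were lost when either donor sample was left out.

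The remaining calls against donor cells differed between kinds of embryo. TXNRD1 and SELENOP passed in IVF embryos alone, higher by 0.98 ± 0.30 and 1.82 ± 0.38 (adjusted p = 0.00809 and 0.000167), while their differences in NT embryos were -0.14 and 0.42. TXN2 passed in AI and NT embryos, higher by 1.04 and 1.07 (adjusted p = 0.0117 and 0.00976), and GPX4 was lower there, with differences of -0.73 and -1.10 (0.00728 and 7.82e-05). The test of each such difference is the comparison between the embryos given above. The calls of TXN2, of TXNRD1 in IVF embryos and of GPX4 in AI embryos were lost when either donor sample was left out. These calls rest on both. Donor levels also differed by dye: with Cy5 and Cy3 arrays TXNRD1 read 1.98 and 0.84, and GPX4 0.59 and -0.51. TXNRD1 read 2.33 and 2.43 in IVF embryos, and GPX4 -1.13 and -0.98 in NT and -0.49 and -0.89 in AI embryos. Against donor cells few calls held under every alternative run. They were PRDX2 in NT embryos, SOD1, PRDX2 and TXNIP in AI embryos, and SOD1, PRDX2, TXNIP and SELENOP in IVF embryos.

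SOD2 was higher than in donor cells in all 3 kinds of embryo, by 1.25 ± 0.27 in AI, 1.23 ± 0.27 in IVF and 0.75 ± 0.27 in NT embryos (adjusted p = 0.000217, 0.000273 and 0.0255). The donor samples differed, at -0.96 and 0.16, and without the first, donor sample 8, no SOD2 call was kept, at 0.69, 0.67 and 0.19. The probes of SOD2 disagreed as well: 1 gave 1.93, 1.93 and 1.57, each past the test over probes, and the other 0.56, 0.54 and -0.07 (adjusted p = 0.363, 0.388 and 0.94). HMOX1 and PRDX3 passed against donor cells in no kind of embryo, with differences in HMOX1 of -0.96 in AI, 0.93 in IVF and -0.62 in NT embryos and standard errors of 0.67 to 0.68.

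Of 88 genes listed for redox systems 49 were measured, 39 of them outside the 10. In IVF against AI embryos 6 of the 39 were higher and 8 lower, with a median difference of 0.03. In NT against IVF embryos 7 were higher and 4 lower, and in NT against AI embryos 4 were higher and 3 lower, with medians of 0.05 and 0.07. With arrays as deposited the 2 comparisons with NT embryos gave 17 and 21 higher and none lower. IVF against AI embryos then gave 6 higher and 2 lower. The split of directions thus rests on centring in each of these comparisons. The shares called, 35.9%, 28.2% and 17.9%, compare with 29.5%, 24.2% and 8.07% of all genes.

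Partners and relatives of the members were among the listed genes of smallest p. CCS, the copper chaperone that loads SOD1, was higher in NT than in AI embryos by 0.45 ± 0.12 (adjusted p = 0.0109), as SOD1 was. GPX8, a peroxidase of the endoplasmic reticulum, was higher by 0.55 ± 0.11 (adjusted p = 0.000463). PRDX1, the closest relative of PRDX2, was lower (difference -0.52 ± 0.16, adjusted p = 0.0325), as was TKT, transketolase of the pentose phosphate pathway (difference -0.56 ± 0.16, adjusted p = 0.0173), and these were -0.11 and -0.15, with neither past the test, with arrays as deposited. CCS and GPX8 were 0.86 and 0.97 there. The PRDX1 call was also lost under quantile normalisation and a common scale, at -0.49 and -0.41.

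Of 22 genes listed for the glutathione and glutaredoxin system 6 were measured. In IVF against AI embryos 4 of the 6 were lower and 1 higher, beside 15.6% and 13.9% of all genes, with a median difference of -0.51 beside 0.03 over all genes. This was the listed system with the largest share called in that comparison, at 83.3%. The share was 50% for NADPH supply, 41.2% for peroxide and superoxide removal and 40% for the thioredoxin system. It was 33.3% for selenoproteins and 22.2% for haem, iron and quinone genes of the NRF2 response (2 of 9, both higher). The shares count the members, chosen with earlier results known, and are a description and no test of the systems. In the thioredoxin system the genes called were the members TXN2 and TXNRD1, and in the NRF2 list HMOX1 was among the 2. The glutathione and glutaredoxin system held no member. GSTK1, a glutathione transferase, differed by -0.59 ± 0.10 (adjusted p = 1.54e-05) and GLRX, glutaredoxin, by -0.74 ± 0.16 (adjusted p = 0.000431). GCLM, a subunit of the enzyme that starts glutathione synthesis, and MGST2, a microsomal glutathione transferase, were lower too (differences of -0.67 ± 0.25 and -0.43 ± 0.12, adjusted p = 0.035 and 0.00398), and neither passed with arrays as deposited. GSR, the reductase that restores glutathione, went the other way, higher by 0.63 ± 0.21 (adjusted p = 0.021), and GSTZ1 differed by -0.01 ± 0.09 (adjusted p = 0.97). Outside that system PRDX6 differed by -0.41 ± 0.10 (adjusted p = 0.00157, and 0.12 with arrays as deposited), and SELENOF, a selenoprotein of the endoplasmic reticulum, was higher by 0.52 ± 0.09 (adjusted p = 1.65e-05). In NT against IVF embryos SELENOF was lower (difference -0.61 ± 0.09, adjusted p = 1.34e-06), while GSTK1, MGST2 and PARK7, a sensor of oxidants, were higher by 0.44 ± 0.10, 0.56 ± 0.11 and 0.71 ± 0.14 (adjusted p = 0.000739, 0.000223 and 0.000146). With arrays as deposited SELENOF no longer passed in NT against IVF embryos, at -0.22, and GSTK1, MGST2 and PARK7 were further apart, at 0.83, 0.94 and 1.09.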

How the data were processed

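Single blastocysts and donor cells had been hybridised on a custom 2-colour cDNA array (92 arrays, 46 samples). Each deposited value is the log2 of the ratio between the dye channels of a spot. Scanner software, background correction, normalisation and the direction of the ratio are not given in the sources used here, and no intensities were used, so that signal over background is unknown. The 2657 cells at a fill value of 16.61 were set to missing, and 4.39% of cells were empty. Deposited array medians ran from -2.14 to 0.86.

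Each array was centred on the median of its spots, the sign was turned where the sample carried Cy3, and means were taken over duplicate spots, over both arrays of a sample (both required) and over probes of 1 symbol. A probe needed values in 50% of each kind of embryo and in both donor samples, which left 7992 of 8208 probes. All 46 samples entered 1 limma fit of group means (limma 3.58.1, R 4.3.3, moderated variances, 2-sided, Benjamini-Hochberg over 4398 genes, threshold 0.05). The fit was tested on simulated data. Scores, correlations and likeness were computed in Python 3.11.15 (numpy 2.4.6, pandas 2.3.3). The number of arrays limits the precision.

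Symbols came from the probe table, and all 10 members matched the RefSeq gene table by Entrez ID. Members, classes and lists were chosen with earlier results of these data known. Named by rule were the 10 members in every comparison, up to 4 other listed redox genes of smallest p among those past the threshold in each comparison between embryos, and the 3 genes that varied most like each member, of which the text gives 3 for some members and 1 for the others. Outside this rule, all measured genes of the glutathione system and all measured peroxiredoxins were named in IVF against AI embryos. Alternatives covered scaling, dye, probes, filters, samples fitted, label sets, donor samples and a replicate block. The fits of the H and 3_ label sets and TXNIP without 1 probe were added after the data were seen. Of 7 numbers that AI and IVF labels share, same-numbered embryos correlated at -0.06 to 0.09, so that the numbers were not taken as pairs.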

Additional observations from a re-analysis of the deposited data

How the results depend on the processing

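Members called in NT against AI embryos numbered 5, beside 355 of 4398 genes. They numbered 3 with arrays as deposited (all higher), beside 1997 genes, and 2 with the Cy3 arrays alone, beside 216 of 4434. With NT embryos labelled 2_ alone they numbered 2, beside 167 genes, and with those labelled 3_ alone 1, beside 178. In NT against donor cells 6, beside 1558 genes, became 3 as deposited, beside 1204, and 3 with the Cy3 arrays alone, beside 1566 of 4434. Leaving out 1 donor sample lowered the number of members called in each kind of embryo, and that of all genes with it. There the lone sample is assumed to vary like the other groups. With TXNRD1 counted as stress-induced, the mitochondrial minus cytosolic mean moved to 0.77 in AI, 0.12 in IVF, 0.66 in NT embryos and -0.24 in donor cells.

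Of the differences that changed sign, 4 passed the test on 1 side: GPX4 in NT against AI embryos (-0.37), TXNRD1 there as deposited (0.58), SELENOP there without the H embryos (-0.54) and GPX4 in IVF embryos against donor cells with the Cy5 arrays alone (-1.07). As deposited, NT against AI gave 0.29 for PRDX3, 0.045 for GPX4 and 0.12 for SELENOP, NT against IVF 0.34 for PRDX2, IVF against AI 0.018 for SOD2, NT against donor cells 0.070 for TXNRD1, and IVF against donor cells -0.088 for TXN2. With the Cy5 arrays alone TXNRD1 was -0.12 in NT against AI, PRDX2 0.036 in NT against IVF, PRDX3 -0.12 and SELENOP -0.19 in NT against donor cells, PRDX3 -0.015 in AI and TXN2 -0.095 in IVF against donor cells. With the Cy3 arrays alone TXN2 was -0.014 in NT against AI, SOD2 0.22 in IVF against AI, TXNRD1 0.41 in NT and GPX4 0.25 in IVF against donor cells. Without the H embryos TXN2 was -0.039 in NT against AI. With NT embryos labelled 3_ alone HMOX1 was -0.16 against AI and PRDX2 0.039 against IVF embryos. In IVF against AI embryos SOD2 was 0.022 under quantile normalisation, 0.032 under a common scale and 0.00050 with 1 probe per symbol, and SOD1 was -0.030 under quantile normalisation. TXN2 in IVF embryos against donor cells was -0.064 without donor sample 8 and 0.23 without 9. The cause was not tested.

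Over the 7 shared numbers, the replicate block gave 5 members called in IVF against AI embryos, with PRDX2 at -0.50 and GPX4 at 0.18 no longer past the threshold and SOD2 at 0.25, in a fit of fewer embryos. It called 458 genes in place of 1299.

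Genes called in NT against AI numbered 355, and 1997 as deposited, 550 with Cy5 alone, 216 with Cy3 alone, 167 with NT labelled 2_ and 178 with 3_. NT against IVF went from 1066 to 1755 as deposited and 697 with 3_ alone, and IVF against AI from 1299 to 698 as deposited. Without 1 donor sample the counts were 1022 to 1024 for NT in place of 1558, 1067 to 1084 for AI in place of 1627, and 966 to 986 for IVF in place of 1508.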

Other observations

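Of the 39 listed redox genes outside the members, 17 passed in NT, 19 in AI and 18 in IVF embryos against donor cells, which is 43.6%, 48.7% and 46.2%, beside 35.4%, 37% and 34.3% of all genes. GPX8 was lower in embryos, with differences of -3.33 ± 0.22 in AI, -3.13 ± 0.22 in IVF and -2.78 ± 0.22 in NT embryos, and so was ME1, the malic enzyme that supplies cytosolic NADPH, with -5.18 ± 0.47, -4.35 ± 0.47 and -5.11 ± 0.47 (limma, adjusted p from 1.15e-17 to 1.69e-10). GSR, the glutathione reductase, was higher by 3.27 ± 0.43 in AI and 3.89 ± 0.43 in IVF embryos (adjusted p = 2.25e-08 and 2.50e-10). CAT, catalase, differed by -2.27 ± 0.31 in IVF and -2.58 ± 0.31 in NT embryos (adjusted p = 8.45e-08 and 3.45e-09). These genes were named after their values were seen, and kept their direction under each scaling. GSR and CAT are given only for kinds of embryo where they were among the 4 listed genes of smallest p. A kind left out is thus not one without a difference. GSR was not shown to differ between NT and AI embryos (-0.19), nor CAT between IVF and AI embryos (0.03).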
